A study of Mus musculus with 3 samples.

Results

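Kif11 and 9 further mitotic kinesins were followed through cycling endothelial cells (ECs), cycling microglia and cycling retinal progenitors of the mouse retina at postnatal day 6. The 10 genes were chosen by symbol from the 33696 genes of the count matrices: Kif11, Kif15, Kif20a, Kif20b, Kif23, Kif4, Kif18b, Kif22, Kif2c and Kifc1. Each symbol matched 1 gene. Retinal cells had been enriched with beads against CD31 and CD11b, which bind ECs and microglia, and were profiled by droplet single-cell RNA sequencing of transcript 3′ ends. The 3 libraries differ by genotype: wild type (WT), a Tspan12 knockout strain (Tspan12 KO), and Ctnnb1 flox/flox; Pdgfb-iCreER (Ctnnb1 cKO), in which tamoxifen on 3 consecutive days from postnatal day 1 was used to delete beta-catenin in ECs. Each library pooled mice of one genotype on a C57BL/6 background, and the WT mice came from other litters than the knockout mice. Whether WT and Tspan12 KO mice also received tamoxifen is not stated. Pdgfb-iCreER was used to target ECs, whereas no cell type or driver is named for the Tspan12 knockout. With 1 library per genotype, genotype and library cannot be told apart, no test between genotypes was possible, and every interval given is a 95% interval for counting error only.

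Kinesins are motors that move along microtubules, and the genes followed here build or take apart the mitotic spindle. Kif11 (kinesin-5) pushes spindle poles apart by sliding antiparallel microtubules, Kif15 (kinesin-12) can maintain the separated poles, and Kifc1 (kinesin-14) moves the opposite way and bundles spindle microtubules. Kif22 and Kif4 bind chromosome arms, Kif2c and Kif18b shorten microtubules at kinetochores and at the cell cortex, and Kif20a, Kif20b and Kif23 act at the central spindle and the midbody during cytokinesis. KIF11 variants are a cause of familial exudative vitreoretinopathy in people, a disease of retinal vessels that also follows from loss of TSPAN12 or of other parts of the Norrin and beta-catenin pathway. The question addressed was whether these genes differ between genotypes once cells that divide are compared with cells that divide.

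The start regions of the genes share a short element. RefSeq windows of GRCm38.p6, from 250 bases before to 50 bases after the annotated start, were available for 9 of the 10 genes, and Kif20a had no entry. The cell cycle genes homology region (CHR), TTTGAA on either strand, was present in 9 of 9 windows and in 17.9% of all 32851 windows. In 8 of the 9 it began within 50 bases of the start, as it did in 4.94% of all windows, and Kif2c was the exception at 103 bases before it. The variant CHR, TTCGAA, was in 0 of 9 windows and in 1.56% of all. The element bound by NF-Y, CCAAT on either strand, was in 6 of 9 windows and in 37.4% of all. Of the motifs of the T-cell factors through which beta-catenin acts, only CTTTGAA and CTTTGAT were searched. CTTTGAA was in 1 of 9 windows, that of Kif15 at 235 bases before the start, and in 5.14% of all. CTTTGAT was in 0 of 9 and in 3.73% of all. CTTTGAA contains the CHR, so the Kif15 match is also a CHR match. These matches describe letters in a window and do not measure binding. From public data, the paper reports binding of the T-cell factor TCF7L2 near the Kif11 start. It also reports a more accessible Kif11 promoter in cerebellar ECs with stabilised beta-catenin. The stretch of 120 bases before the Kif11 start, chr19:37376262-37376381 on the plus strand, is given because it holds both elements, in capitals, the NF-Y element first and the CHR after it, both read here as their complement.
Kif11: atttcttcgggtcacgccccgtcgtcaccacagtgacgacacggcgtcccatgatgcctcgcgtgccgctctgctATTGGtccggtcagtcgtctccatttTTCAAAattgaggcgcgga
The CHR nearest to the start of the other genes is shown in 30 bases on the strand of each gene, with the CHR or its complement in capitals. The windows lie at chr9:122951050-122951079 (plus, Kif15), chr19:34922353-34922382 (plus, Kif20b), chr9:61946780-61946809 (minus, Kif23), chrX:100626072-100626101 (plus, Kif4), chr11:102925104-102925133 (minus, Kif18b), chr7:127042420-127042449 (minus, Kif22), chr4:117178858-117178887 (minus, Kif2c) and chr17:33890615-33890644 (minus, Kifc1).
Kif15: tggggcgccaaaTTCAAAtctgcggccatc
Kif20b: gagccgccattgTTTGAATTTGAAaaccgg
Kif23: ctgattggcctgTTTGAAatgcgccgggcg
Kif4: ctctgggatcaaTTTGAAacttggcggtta
Kif18b: cggaccggctagTTTGAAcgcgccgcgccg
Kif22: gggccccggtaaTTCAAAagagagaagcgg
Kif2c: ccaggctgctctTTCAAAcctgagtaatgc
Kifc1: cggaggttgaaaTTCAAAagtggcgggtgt
Kif20b carries the element as a pair without a gap. The position of the matches along each window is drawn in the map of start regions.

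**Figure D1:**
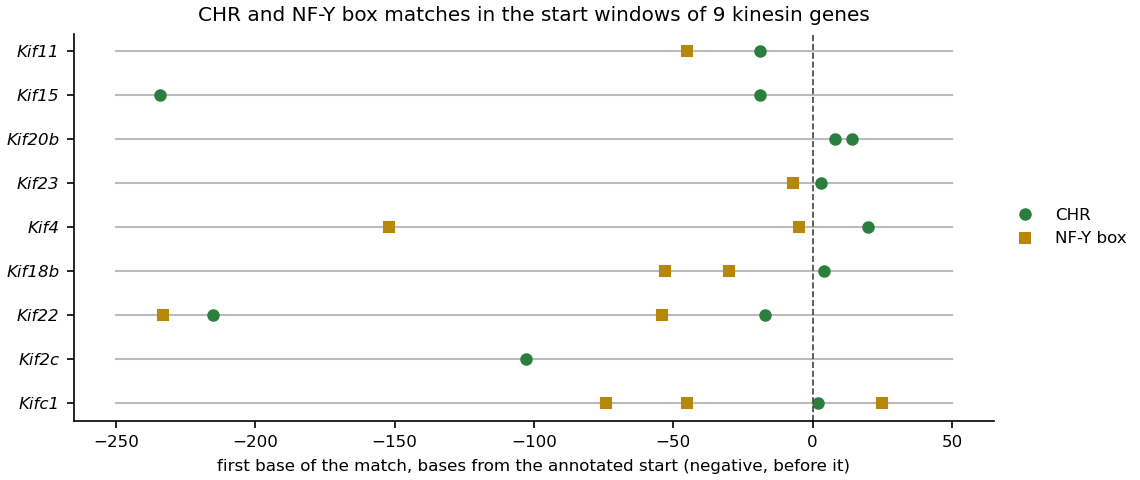
Position of CHR (circles) and NF-Y box (squares) matches in the start windows of 9 kinesin genes; the x axis is the distance in bases of the first base of a match from the annotated start (dashed line), with negative values before it, and each row is 1 gene. Matches to the CHR gather around the start in 8 of the 9 genes, with Kif2c 103 bases before it.

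The libraries held 9951 (WT), 14426 (Tspan12 KO) and 9151 (Ctnnb1 cKO) cell barcodes and 92684519, 137114957 and 37008362 unique molecular identifiers (UMIs), and after filters and removal of likely doublets 8989, 12732 and 8451 cells were kept. Pairs of libraries shared 21 to 37 barcodes, at most 0.393% of the smaller library. The 10 kinesins gave between 939 (Kif18b) and 6627 (Kif22) UMIs over all kept cells, and Kif11 (ENSMUSG00000012443) gave 5702. The targeted genes were still counted in ECs: Tspan12 was at 95.9 counts per 1000000 UMIs (CPM) in WT, 84.1 in the Tspan12 KO and 40.1 in the Ctnnb1 cKO library, and Ctnnb1 was at 523, 617 and 444 CPM. The deleted parts of both genes are not given in the sources used here, and 3′ counts can come from an allele that keeps its end, so these counts do not check the labels.

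A cell was called cycling when, after thinning to 2000 UMIs, it held at least 3 UMIs over 12 mitotic rule genes (Mki67, Top2a, Cdk1, Ccnb1, Ccnb2, Ccna2, Ube2c, Birc5, Cenpf, Nusap1, Tpx2 and Hmmr), none of them a kinesin. Kinesins were also kept out of the genes used for clustering. By this rule 163 WT, 52 Tspan12 KO and 356 Ctnnb1 cKO ECs were cycling, or 31.3%, 19.9% and 18.9% of the ECs deep enough to be called. Cycling microglia numbered 23, 38 and 279 (9.50%, 12.2% and 15.7%). The retinal progenitors were 1 cluster, c15, that passed 6 of 8 progenitor markers and had cell-cycle genes (Esco2, Neil3, Spc25, Pbk) among its 10 leading genes, and 296, 166 and 64 of its cells were cycling (97.0%, 92.7% and 97.0%). It is called the progenitor cluster, and since cell-cycle genes were among those that formed it, its kinesin level against other cells is a description. ECs of WT and Tspan12 KO lay mostly in cluster c14, and those of the Ctnnb1 cKO in clusters c4 and c16, led by Slco1a4 and by Eln. Microglia of the Ctnnb1 cKO lay mostly in clusters c7 and c21, and those of the other libraries in c17 and c22. Kif18b was among the 10 leading genes of c21, which held 209 Ctnnb1 cKO, 19 Tspan12 KO and 10 WT cells. The median depth of cycling ECs was 25226 UMIs per cell in WT, 29690 in the Tspan12 KO and 5773 in the Ctnnb1 cKO.

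In every library the summed kinesins were lowest in cycling ECs, intermediate in cycling microglia and highest in the progenitor cluster. Over the 10 genes, cycling ECs held 638 CPM in WT (620 to 657), 533 in the Tspan12 KO (501 to 566) and 673 in the Ctnnb1 cKO (642 to 705). Cycling microglia held 1178, 1148 and 1065 CPM, and the progenitor cluster 1772, 1489 and 1360.5 CPM. The order of the 3 populations was the same in each library and no intervals of the sums met within one. In WT, the interval of the log2 ratio of cycling ECs to the progenitor cluster lay below 0 for 10 of 10 kinesins, and that of cycling ECs to cycling microglia for 7 of 10. In the Tspan12 KO these counts were 9 and 8 of 10, and in the Ctnnb1 cKO 6 and 9 of 10. How many of all genes differ in this way between the populations was not computed, so the counts are a description. The 12 rule genes showed the same order in each library, with log2 ratios of cycling ECs to the progenitor cluster of −1.40, −1.18 and −1.001, beside −1.47, −1.48 and −1.02 for the 10 kinesins. Kif11 itself was at 92.0 (WT), 83.0 (Tspan12 KO) and 94.1 CPM (Ctnnb1 cKO) in cycling ECs, at 188, 235 and 158 CPM in cycling microglia, and at 338, 264 and 240 CPM in the progenitor cluster. It made up 14.4%, 15.6% and 13.98% of the kinesin UMIs of cycling ECs, 15.9%, 20.4% and 14.8% of those of cycling microglia, and 19.1%, 17.7% and 17.6% of those of the progenitor cluster.

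**Figure D2:**
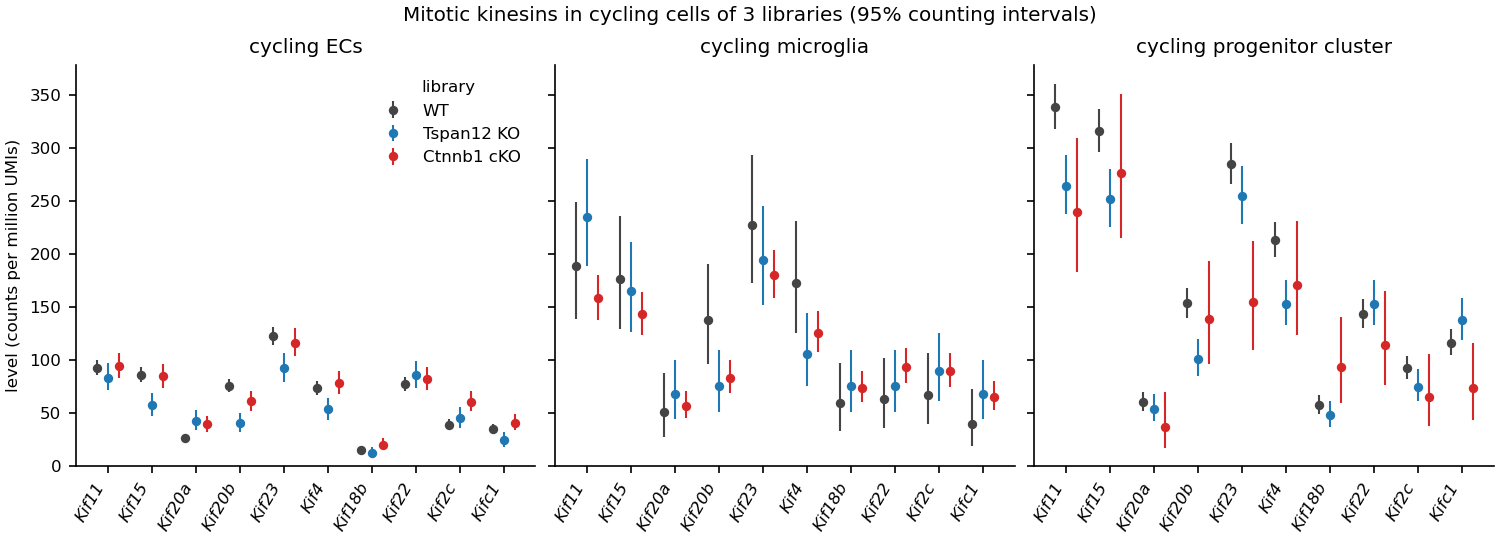
Level of each kinesin in CPM (y axis) in cycling ECs, cycling microglia and the cycling progenitor cluster of the WT, Tspan12 KO and Ctnnb1 cKO libraries; points are summed counts of 1 library each and bars are 95% exact Poisson intervals. Kif11, Kif15 and Kif23 are among the most abundant in all 3 panels, and the bars of Kif22 in ECs (76.7, 85.0 and 81.5 CPM) overlap those in microglia (62.6, 75.5 and 93.0 CPM) in each library.

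The order of the genes by UMIs was alike in most populations. UMIs of 3′ ends count molecules and were not divided by transcript length. Kif23 led in cycling ECs of all 3 libraries, at 122, 92.0 and 116 CPM, and Kif18b was last there, at 15.1, 12.003 and 19.6 CPM. Kif11, Kif15 and Kif23 were the first 3 genes in cycling microglia of every library. In the progenitor cluster Kif11 led in WT and the Tspan12 KO, and Kif15 (276 CPM) stood above Kif11 (240 CPM) in the Ctnnb1 cKO, with overlapping intervals. Of the 9 neighbouring pairs in each order, 4 had overlapping intervals in the WT progenitor cluster and 5 in WT cycling ECs. All 9 overlapped in cycling microglia of each library, so their order within that population is not resolved at this depth.

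In cycling ECs the knockout libraries were compared with WT first among the motors that separate and bundle the spindle. Kif11 was at 92.0 CPM (85.1 to 99.4, 654 UMIs) in WT, 83.0 (70.9 to 96.7, 166 UMIs) in the Tspan12 KO and 94.1 (82.9 to 106, 254 UMIs) in the Ctnnb1 cKO. The 3 intervals overlapped, and the ratios to WT on the log2 scale were −0.15 (−0.40 to 0.10) and 0.03 (−0.18 to 0.24). Over the 10 alternatives the ratio ran from −0.31 to 0.33 in the Tspan12 KO and kept its direction in 7, and from −0.27 to 0.16 in the Ctnnb1 cKO, where it kept it in 4. The paper reports lower Kif11 in postnatal ECs, and in proliferative ECs, when Norrin and beta-catenin signalling is lost. It called proliferative ECs by its own clustering and added public samples, so its cells and those called cycling here are not the same set. Kif15 was at 85.6 CPM in WT and 84.1 in the Ctnnb1 cKO, but at 57.0 in the Tspan12 KO, a log2 ratio of −0.59 (−0.89 to −0.29), which stayed below 0 in 10 of 10 alternatives and passed 1.5-fold in 5. Kifc1 was at 34.2, 24.0 and 40.4 CPM in the order WT, Tspan12 KO, Ctnnb1 cKO, or −0.51 (−0.99 to −0.06) and 0.24 (−0.10 to 0.57) as log2 ratios.

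The motors of chromosome arms and the microtubule shorteners had other patterns. Kif22 stood at 76.7, 85.0 and 81.5 CPM, and both ratios to WT had intervals across 0. Kif4 was at 73.0 CPM in WT, 53.0 in the Tspan12 KO and 77.8 in the Ctnnb1 cKO, or −0.46 (−0.78 to −0.16) and 0.09 (−0.15 to 0.32), and the Tspan12 KO value ran from −0.60 to 0.35 over the alternatives. Kif2c was at 38.7, 44.5 and 60.01 CPM, at log2 ratios of 0.63 (0.34 to 0.92) in the Ctnnb1 cKO and 0.20 (−0.16 to 0.55) in the Tspan12 KO. Over the alternatives the first ran from 0.043 to 0.76 and passed 1.5-fold in 7 of 10, and the second ran from −2.67 to 0.49 and kept its direction in 8 of 10. Kif18b was counted at 107, 24 and 53 UMIs, and the intervals of both ratios held 0.

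The cytokinesis motors Kif20a and Kif20b differed from WT in opposite directions. Kif20a, which brings the chromosomal passenger complex to the central spindle, was at 25.6 CPM in WT (22.0 to 29.6, 182 UMIs), 42.0 in the Tspan12 KO (33.5 to 52.0, 84 UMIs) and 38.9 in the Ctnnb1 cKO (31.8 to 47.1, 105 UMIs). Both knockout libraries lay above WT without overlap, at log2 ratios of 0.71 (0.32 to 1.09) and 0.60 (0.24 to 0.96). Kif20b, which acts late in cytokinesis, was at 75.4 CPM in WT (69.2 to 82.1, 536 UMIs), 40.01 in the Tspan12 KO (31.7 to 49.8, 80 UMIs) and 60.7 in the Ctnnb1 cKO (51.8 to 70.8, 164 UMIs), at log2 ratios of −0.91 (−1.27 to −0.57) and −0.31 (−0.57 to −0.06). Kif23, the motor of the centralspindlin complex, was at 122, 92.0 and 116 CPM, or −0.41 (−0.65 to −0.18) and −0.08 (−0.27 to 0.11). Kif20a kept its direction in all 10 alternatives, at 0.43 to 1.01 in the Tspan12 KO and 0.13 to 0.73 in the Ctnnb1 cKO, and passed 1.5-fold in 7 and 3 of them. Kif20b also kept its direction in all 10, at −1.67 to −0.62 and −0.81 to −0.18, and passed 1.5-fold in 10 and 3.

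Past a ratio of 1.5-fold, 2 of the 10 kinesins were lower in Tspan12 KO cycling ECs (Kif15 and Kif20b), beside 11.2% of the 10174 genes compared, and 1 was higher (Kif20a), beside 7.97%. In Ctnnb1 cKO cycling ECs 0 kinesins were lower, beside 23.9% of 10389 genes, and 2 were higher (Kif20a and Kif2c), beside 13.6%. The median log2 ratio of the 10 kinesins was −0.37 in the Tspan12 KO, where that of all genes was −0.02, and 0.09 in the Ctnnb1 cKO, where that of all genes was −0.12. TMM scaling, which trims genes with extreme ratios, added 0.13 to every log2 ratio of the Ctnnb1 cKO cycling ECs, and the split of all genes there changed from 2482 lower and 1409 higher to 1887 lower and 1826 higher. Under that scaling 1 of the 10 kinesins was below WT in place of 3. The 10 kinesins summed had a log2 ratio of −0.26 (−0.36 to −0.16) in the Tspan12 KO and 0.08 (−0.0031 to 0.15) in the Ctnnb1 cKO, and the 12 rule genes −0.29 (−0.34 to −0.25) and 0.31 (0.27 to 0.34). Per UMI of the rule genes, the kinesin sum was at 0.03 (−0.07 to 0.13) in the Tspan12 KO and at −0.23 (−0.31 to −0.15) in the Ctnnb1 cKO, a description, since the same rule genes chose the cells and the depth per cell differed. The Ctnnb1 cKO sum depended on how cells were weighted: when every cycling EC counted equally it was −0.23, and after thinning each cell to 2000 UMIs it was −0.28. Kif11 per UMI of the other 9 kinesins was at 0.13 (−0.12 to 0.38) in the Tspan12 KO and −0.05 (−0.27 to 0.16) in the Ctnnb1 cKO.

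Markers of other cell types differed between the cycling ECs of the libraries. The 8 microglial markers summed to 166 CPM in WT, 116 in the Tspan12 KO (Tmem119 and P2ry12 at 0) and 683 in the Ctnnb1 cKO, beside 7764, 7359 and 6917 CPM for the 8 endothelial markers. The 8 rod markers summed to 168, 268 and 132 CPM. The 8 progenitor markers summed to 404, 578 (Fgf15 at 0) and 452 CPM, and the 8 markers of neurogenic precursors to 397 (Atoh7 at 0), 244 and 295 CPM (Neurog2 at 0 in both knockout libraries). The part of these transcripts and of the depth gap in the kinesin ratios was not tested.

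**Figure D3:**
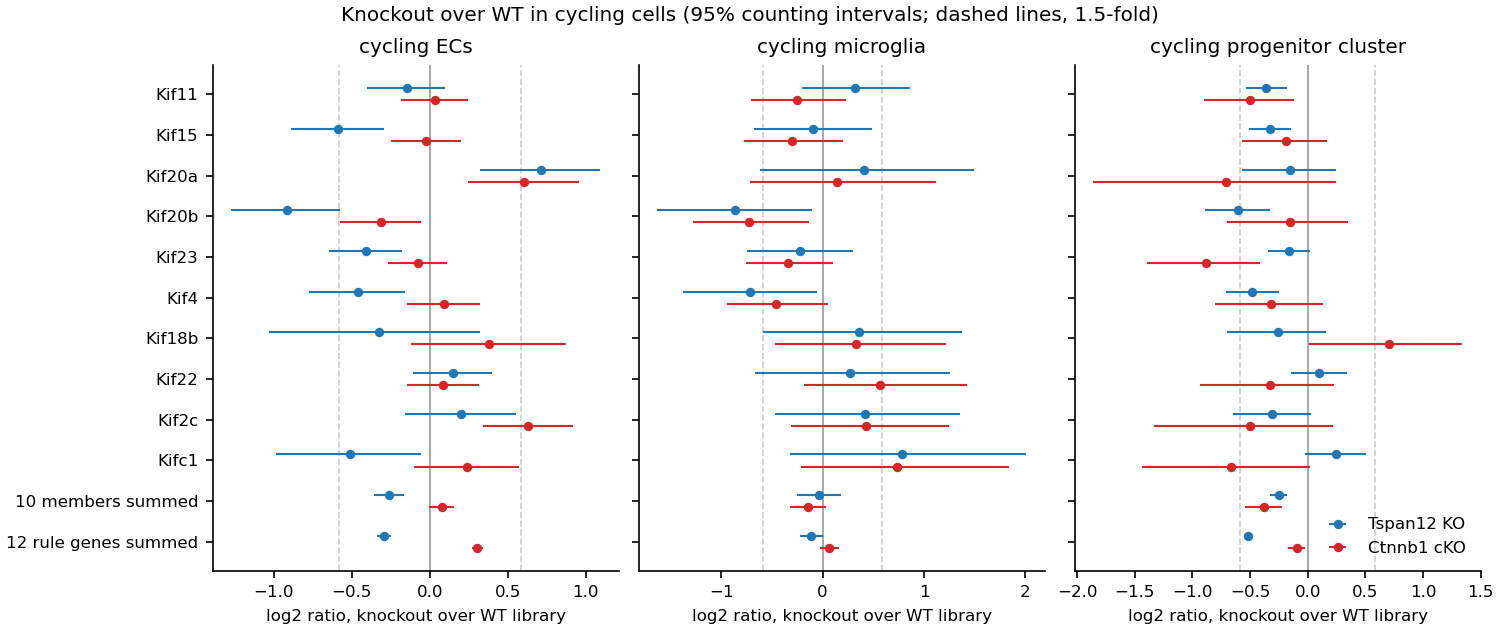
Log2 ratio of the Tspan12 KO (blue) and Ctnnb1 cKO (red) libraries to WT (x axis) for each kinesin, the 10 summed and the 12 rule genes summed, in cycling ECs, cycling microglia and the cycling progenitor cluster; bars are 95% exact conditional intervals for counting error and dashed lines mark 1.5-fold, with a separate x scale in each panel. Kif20a lies right of 0 and Kif20b left of 0 in cycling ECs of both knockout libraries.

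Over all ECs, cycling or not, the kinesins were lower in both knockout libraries. The 10 summed were at 351 CPM in WT, 249.9 in the Tspan12 KO and 208 in the Ctnnb1 cKO, at log2 ratios of −0.49 (−0.57 to −0.41) and −0.76 (−0.82 to −0.69). The 12 rule genes had ratios of −0.51 and −0.63 there. Single kinesins ranged from −1.06 (Kif20b) to 0.11 (Kif20a) in the Tspan12 KO, and from −1.14 (Kif20b) to −0.24 (Kif2c) in the Ctnnb1 cKO. Kif20b was thus the lowest of the 10 in both, and Kif20a in the Tspan12 KO was the single value above 0. Fewer cycling cells and less RNA per cell cannot be told apart in such sums. Of the kinesin UMIs in ECs of callable depth, 80.3% in WT, 66.6% in the Tspan12 KO and 72.8% in the Ctnnb1 cKO came from cycling cells, which held 44.2%, 31.3% and 23.0% of all UMIs of those ECs. In ECs not called cycling the sum was 124 CPM in WT, 122 in the Tspan12 KO and 74.8 in the Ctnnb1 cKO.

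Matching cells by the number of rule-gene UMIs gave a finer view. From ECs with 0 rule-gene UMIs to those with 6 or more, Kif11 went from 3.58 to 133 CPM in WT, from 6.18 to 117 in the Tspan12 KO and from 3.12 to 125 in the Ctnnb1 cKO. In the top bin the log2 ratio of Kif11 to WT was −0.19 (−0.55 to 0.16) in the Tspan12 KO and −0.08 (−0.33 to 0.17) in the Ctnnb1 cKO. In the bin of 1 to 2 rule-gene UMIs it was 0.53 (0.07 to 0.99) in the Tspan12 KO, from 69 UMIs, and −0.64 (−1.19 to −0.12) in the Ctnnb1 cKO, from 45 UMIs against 97 in WT. The 10 kinesins summed followed Kif11 in that bin only in the Ctnnb1 cKO, at −0.59 (−0.77 to −0.41) beside −0.04 (−0.21 to 0.14) in the Tspan12 KO. Kif20a in the top bin was at 35.9 CPM in WT (29.9 to 42.7, 91 cells), 64.9 in the Tspan12 KO (47.2 to 87.1, 16 cells) and 52.5 in the Ctnnb1 cKO (41.4 to 65.6, 194 cells). This is the order found over all cycling ECs, of which these cells are a part. The rule genes stood at 3555, 3076 and 4516.5 CPM in the top bin. A cell of the Ctnnb1 cKO in the bin of 1 to 2 held fewer rule-gene transcripts before thinning, 663 CPM against 916 in WT, so the bins are not matched exactly.

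**Figure D4:**
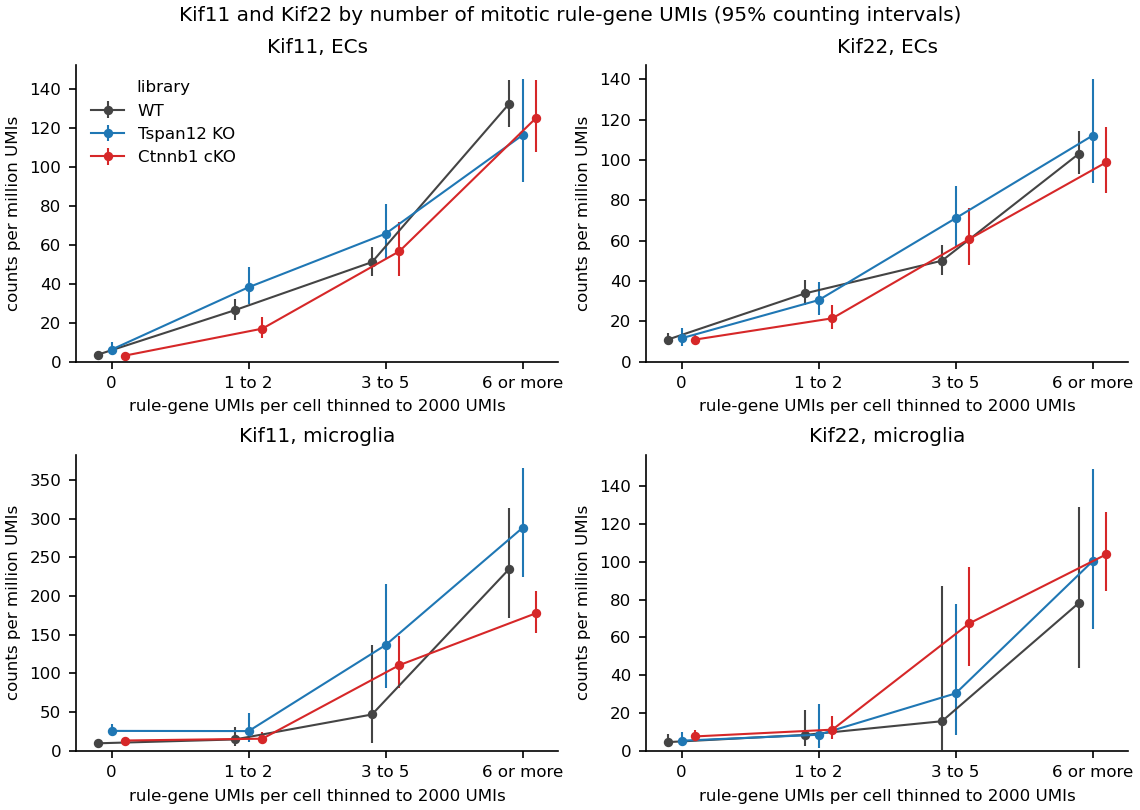
Kif11 (left) and Kif22 (right) in CPM (y axis) in ECs (top) and microglia (bottom), binned by the number of rule-gene UMIs per cell after thinning to 2000 UMIs (x axis); points are summed counts of 1 library and bars are 95% exact Poisson intervals. Kif11 in ECs with 6 or more rule-gene UMIs lies at 133, 117 and 125 CPM, and in microglia without a rule-gene UMI it lies at 9.73, 25.7 and 13.3 CPM.

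Cycling microglia had fewer cells and wider intervals. Kif11 was at 188 CPM in WT (138 to 249, 48 UMIs), 235 in the Tspan12 KO (188 to 289, 87 UMIs) and 158 in the Ctnnb1 cKO (138 to 180, 219 UMIs), or 0.32 (−0.20 to 0.86) and −0.25 (−0.71 to 0.23) as log2 ratios. The 10 kinesins summed had ratios of −0.04 (−0.25 to 0.18) and −0.14 (−0.32 to 0.04), so no difference was detectable at this depth. Kif20b was lower in both knockout libraries, at 137 CPM in WT, 75.5 in the Tspan12 KO and 82.9 in the Ctnnb1 cKO, or −0.86 (−1.63 to −0.10) and −0.72 (−1.28 to −0.13). The Ctnnb1 cKO value turned to 0.34 when each cell was thinned to 2000 UMIs. Kif4 was at 172, 105 and 125 CPM and had ratios of −0.71 (−1.37 to −0.06) and −0.46 (−0.94 to 0.05). Past 1.5-fold, 2 of the 6 kinesins with enough UMIs were lower in the Tspan12 KO (Kif20b and Kif4), beside 10.3% of 2448 genes, and 0 of 6 were higher, beside 11.4%. In the Ctnnb1 cKO 1 of 10 was lower (Kif20b), beside 19.1% of 5299 genes, and 1 was higher (Kifc1, from 10 UMIs in WT), beside 23.6%. The 8 endothelial markers summed to 235, 89.0 and 462 CPM in these cells, and their part in the ratios was not tested.

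Over all microglia the summed kinesins stood higher in both knockout libraries, and lower over all ECs. The 10 summed were at 145 CPM in WT, 206 in the Tspan12 KO and 249 in the Ctnnb1 cKO, at log2 ratios of 0.50 (0.31 to 0.69) and 0.78 (0.62 to 0.94), beside 0.31 (0.20 to 0.41) and 0.92 (0.84 to 1.01) for the rule genes. Kif11 had the second largest ratio in the Tspan12 KO, 0.97 (0.56 to 1.39), after Kifc1 at 1.16 (0.16 to 2.23). In the Ctnnb1 cKO the ratio of Kif11 was 0.58 (0.21 to 0.96), and only that of Kif20b was smaller, at 0.06 (−0.41 to 0.55).

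Kif11 was also counted in microglia in which the rule genes were scarce. In microglia with 0 rule-gene UMIs after thinning, Kif11 gave 19 of 56 kinesin UMIs in WT, or 33.9% (21.8 to 47.8), 48 of 90 in the Tspan12 KO, or 53.3% (42.5 to 63.9), and 56 of 213 in the Ctnnb1 cKO, or 26.3% (20.5 to 32.7). Before thinning these cells held 149, 104 and 240 rule-gene UMIs in all. In ECs with 0 rule-gene UMIs the same shares were 6.55% (3.99 to 10.04), 11.4% (6.68 to 17.9) and 7.07% (4.37 to 10.7). These ECs held more rule-gene transcripts before thinning, 3.90, 2.87 and 0.605 UMIs per cell against 0.861, 0.444 and 0.211 in the microglia, so the cell types are not matched and the shares stand side by side as a description. The Kif11 UMIs of these microglia came from 8 of 173 cells in WT, 21 of 234 in the Tspan12 KO and 33 of 1140 in the Ctnnb1 cKO. Single cells weighed on them: the cell with most Kif11 held 6, 8 and 15 UMIs, and without it the shares were 26.0%, 48.8% and 20.7%. Kif15, which works beside Kif11 on the spindle, gave 7, 14 and 24 UMIs in the same cells, and Kif20a gave 3, 0 and 6. Kif22 gave 9, 10 and 32, Kif20b 9, 4 and 16, and Kif2c 3, 5 and 35. A count of 0 allows up to 1.35 CPM of Kif20a in Tspan12 KO microglia not called cycling, where Kif11 was at 25.7 CPM (19.5 to 33.3). GENCODE vM21 has 1 other gene that overlaps Kif11 on its strand (AC137605.4) and 1 on the opposite strand (AC137605.6). Kif15 overlaps Gm47148 on its strand and Kif20a overlaps Cdc23 on the opposite strand. Whether reads of an overlapping gene entered these counts was not tested.

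In the progenitor cluster the interval of the log2 ratio to WT lay below 0 for 4 of 10 kinesins in the Tspan12 KO (Kif11, Kif15, Kif20b and Kif4) and for 2 of 10 in the Ctnnb1 cKO (Kif11 and Kif23), and above 0 for Kif18b in the Ctnnb1 cKO. The share of all genes with such intervals was not computed, so these counts are a description of the kinesins alone. Kif11 was at 338 CPM in WT (318 to 360), 264 in the Tspan12 KO (237 to 293) and 240 in the Ctnnb1 cKO (182 to 309), or −0.36 (−0.54 to −0.18) and −0.50 (−0.90 to −0.12). The 10 summed had ratios of −0.25 (−0.33 to −0.18) and −0.38 (−0.55 to −0.22), and the rule genes −0.51 (−0.55 to −0.47) and −0.10 (−0.17 to −0.02). Per UMI of the rule genes, which also chose the cells, the kinesin sum was at 0.26 (0.19 to 0.34) in the Tspan12 KO and at −0.29 (−0.45 to −0.13) in the Ctnnb1 cKO. Kif20b was at 153, 101 and 138 CPM, with a log2 ratio of −0.61 (−0.89 to −0.33) in the Tspan12 KO. Kif22 and Kifc1 had ratios of 0.10 (−0.15 to 0.34) and 0.24 (−0.02 to 0.50) there, with both intervals across 0. In the Ctnnb1 cKO the counts were small, with 335 kinesin UMIs in all, and Kif23 had a ratio of −0.88 (−1.39 to −0.41) that turned to 0.018 when cells were gated by markers in place of clusters.

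Past 1.5-fold in the progenitor cluster, 1 kinesin was lower in the Tspan12 KO (Kif20b), beside 6.83% of 9251 genes, and 0 were higher, beside 6.17%. In the Ctnnb1 cKO 3 were lower (Kif20a, Kif23 and Kifc1), beside 25.5% of 8446 genes, and 1 was higher (Kif18b), beside 14.4%. The 8 rod markers summed to 434 CPM in WT, 757 in the Tspan12 KO and 1336 in the Ctnnb1 cKO cells of this cluster, and the 8 microglial markers to 126, 76.0 and 638 CPM. Their part in the ratios was not tested.

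Counted per cell at 2000 UMIs, a UMI of any of the 10 kinesins was found in 32.7% of WT (28.7 to 36.9), 24.9% of Tspan12 KO (19.8 to 30.6) and 20.1% of Ctnnb1 cKO ECs (18.3 to 22.0), with 18, 25 and 822 shallower ECs left out. In rods, which no longer divide, the same share was 12.3%, 13.7% and 15.6%, with Kif22 alone in 5.10%, 6.69% and 5.66%. The rods of the libraries lay in different clusters: 1887 of the 1946 Ctnnb1 cKO rods were in c6, which had no rod marker among its 10 leading genes, while those of WT and the Tspan12 KO lay mostly in c1 and c3. The rule genes summed to 120, 115 and 332 CPM in these rods. The rule genes called 10, 13 and 58 rods cycling, or 0.784%, 0.988% and 6.98%. The median depth before thinning was 16619, 18305 and 4592 UMIs in these ECs and 3410, 3957 and 4295 in the rods. Without thinning the shares in ECs were 65.4%, 56.6% and 28.4%. Among cycling ECs the share was 77.9%, 61.5% and 64.9%, and 36 of 163, 8 of 52 and 63 of 356 of them held UMIs of 3 or more kinesins. Among ECs not called cycling it was 12.04% (8.86 to 15.9), 15.8% (11.1 to 21.5) and 9.69% (8.25 to 11.3). In microglia it was 16.1%, 14.5% and 20.4% over all and 73.9%, 73.7% and 79.2% among cycling cells. In the progenitor cluster it was 93.1%, 91.1% and 87.9%. Kif11 alone was found in 0.784%, 1.82% and 2.05% of rods, and in 1.12%, 1.44% and 0.982% of ECs not called cycling, beside 17.8%, 21.2% and 17.4% of cycling ECs.

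Kif22 stood apart from the other 9 across cell types. It was found in 5.10%, 6.69% and 5.66% of rods in WT, Tspan12 KO and Ctnnb1 cKO, where no other kinesin of the 10 passed 2.98%. In rods it was at 26.6, 38.0 and 33.8 CPM while Kif11 was at 5.79, 7.63 and 10.4. In cones Kif22 was at 29.7 CPM in WT and 40.7 in the Tspan12 KO, beside 9.15 and 7.70 for Kif11. In microglia not called cycling Kif22 was at 5.36, 5.86 and 8.49 CPM, below Kif11 at 10.7, 25.7 and 13.9. Across 27 sums of 1 cell class in 1 library, the Pearson correlation of the log2 level of Kif22 with Kif11 was 0.69, rank 379 of 14480 genes, where the other 8 kinesins had 0.91 to 0.97. These sums share libraries and depth, and the correlation is a description. Kif2c was the member most like Kif11 (0.97, rank 2). Outside the 10 kinesins and the rule genes, the genes most like Kif11 were Stil (0.98), Aspm (0.97), Neil3 (0.97), Cep55 (0.97) and Knl1 (0.97).

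**Figure D5:**
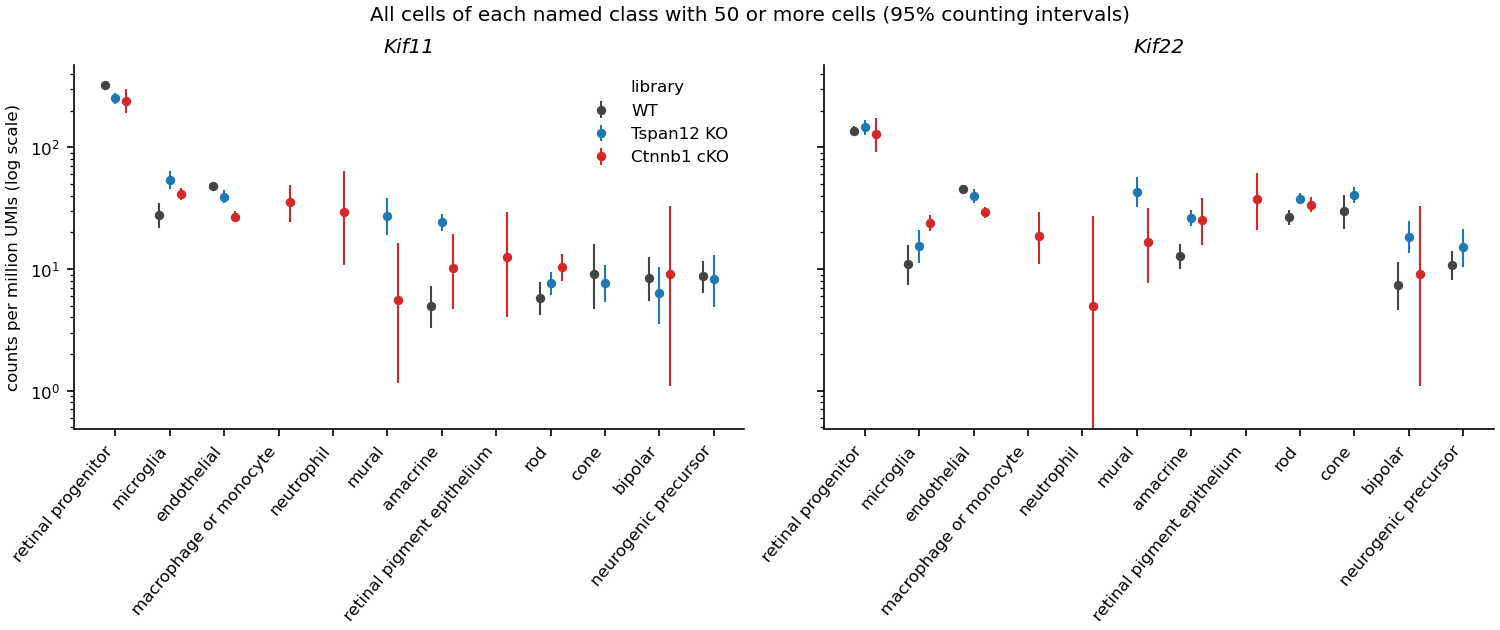
Kif11 (left) and Kif22 (right) in CPM (y axis, log scale) over all cells of each named cell class with at least 50 cells in a library (x axis, ordered by the highest Kif11 level); points are summed counts of 1 library each and bars are 95% exact Poisson intervals. In rods and cones Kif22 lies between 26.6 and 40.7 CPM, above Kif11.

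Other genes of the spindle were counted from fixed lists. Of the 4 other mitotic kinesins (Cenpe, Kif14, Kif18a and Kif24), 0 of 4 passed 1.5-fold in Tspan12 KO cycling ECs, where 11.2% of all genes were lower and 7.97% higher, with a median log2 ratio of −0.31 beside −0.02 for all genes. In the Ctnnb1 cKO, where 23.9% of all genes were lower and 13.6% higher, 1 of 4 was lower, Kif18a, a motor that restrains chromosome movement, at 18.9 CPM against 36.9 in WT, a log2 ratio of −0.96 (−1.43 to −0.53). In the progenitor cluster 3 of 4 were lower in the Tspan12 KO (Cenpe, Kif14 and Kif18a) and 3 of 4 in the Ctnnb1 cKO (Kif14, Kif18a and Kif24), beside 6.83% and 25.5% of all genes, with medians of −0.61 and −0.81 beside −0.01 and −0.13 for all genes. In cycling microglia 1 of 1 (Cenpe) and 2 of 4 (Cenpe and Kif18a) were lower, beside 10.3% and 19.1% of all genes.

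Of the 16 partners and regulators of the kinesins, 1 was lower and 1 higher in Tspan12 KO cycling ECs, beside 11.2% and 7.97% of all genes. Hmmr, a spindle assembly protein that is also a rule gene, was at 84.4 CPM in WT and 35.0 in the Tspan12 KO, a log2 ratio of −1.27 (−1.65 to −0.91), and Numa1, which organises spindle poles, was at 57.4 and 88.5 CPM, or 0.62 (0.36 to 0.88). In the Ctnnb1 cKO 2 were higher and 1 lower, beside 13.6% and 23.9%. Prc1, which bundles the central spindle and works with Kif4, was at 330 CPM against 184 in WT, a log2 ratio of 0.84 (0.72 to 0.97), Incenp, of the complex that Kif20a moves, was at 136 against 88.5 CPM, or 0.62 (0.43 to 0.81), and Ect2, which starts furrowing on centralspindlin, was at 46.3 against 74.2 CPM, or −0.68 (−0.97 to −0.40). The list medians were −0.04 and 0.23. In cycling microglia of the Tspan12 KO 1 of 13 was lower and 1 higher, beside 10.3% and 11.4% of all genes. In those of the Ctnnb1 cKO 1 of 15 was lower and 1 higher, beside 19.1% and 23.6%. In the progenitor cluster 1 of 15 (Hmmr) was lower in the Tspan12 KO, beside 6.83% of all genes. In that of the Ctnnb1 cKO 0 of 15 were lower, beside 25.5%.

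The list of 27 other kinesins and light chains had 17 members with enough UMIs in cycling ECs. In the Tspan12 KO 2 of 17 were higher and 0 lower, beside 7.97% and 11.2% of all genes, and in the Ctnnb1 cKO 3 were higher and 1 lower, beside 13.6% and 23.9%. Kifc3, a minus-end motor of epithelial junctions, was among those higher in both, at 18.6 CPM in WT, 35.0 in the Tspan12 KO and 35.6 in the Ctnnb1 cKO, or 0.91 (0.47 to 1.34) and 0.94 (0.54 to 1.33). The medians of this list were 0.11 and 0.03. In cycling microglia of the Tspan12 KO 0 of 2 passed, beside 11.4% of all genes higher and 10.3% lower. In those of the Ctnnb1 cKO 4 of 10 were higher and 1 lower, beside 23.6% and 19.1%. In the progenitor cluster of the Tspan12 KO 1 of 14 was higher and 1 lower, beside 6.17% and 6.83%. In that of the Ctnnb1 cKO 2 of 13 were higher and 2 lower, beside 14.4% and 25.5%.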

How the data were processed

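Retinal cells of 3 libraries, 1 per genotype, were analysed from the UMI count matrices the authors deposited, made with Cell Ranger, version 8.0.1 in the file headers. The submitters' processing notes name GRCm39 and the methods another build, so the build of the counts is unsettled and no coordinate was taken from them. Barcodes below 250 genes or 500 UMIs, or above 15% mitochondrial UMIs, were left out. Scrublet scores were computed in scanpy 1.11.5. Its automatic threshold called 0, 0 and 323 cells, so the highest scores were removed at 0.8% per 1000 cells (760, 1656 and 665 cells). Cells of the libraries were clustered together without kinesins among the variable genes, and clusters were named from marker lists. Clusters without a clear match were left unnamed, with 3905 WT (43.4%), 5616 Tspan12 KO (44.1%) and 555 Ctnnb1 cKO cells (6.57%). The rule genes called 110, 200 and 19 of the unnamed cells cycling, and the 10 kinesins gave 2544, 7429 and 206 UMIs in them. Unnamed cells are not part of the ECs, microglia or progenitor cluster compared here.

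UMIs were summed per library, class and cycling call and given as counts per 1000000 of the same sum (CPM). Levels have exact Poisson, shares exact Clopper-Pearson and log2 ratios exact conditional binomial intervals, all at 95% and for counting error only, and a count of 0 was given the limit of 3 counts. A gene was compared with at least 50 UMIs in the 2 libraries. With 1 library per genotype no p-value was computed. Likeness to Kif11 used log2(CPM + 5) for genes with at least 500 UMIs. TMM factors came from edgeR 4.0.16. Scripts were tested on simulated data with known folds. The members and lists were chosen with earlier results of these data known. The genes named are the 10 kinesins, members of the fixed lists, the rule genes and the 5 genes most like Kif11. No columns other than those of these 3 libraries were used.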

Additional observations from a re-analysis of the deposited data

Results flagged for a closer look

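The 10 kinesins summed differed from WT in opposite directions in 2 cell types of the same libraries. Over all ECs the log2 ratio to WT was −0.49 in the Tspan12 KO and −0.76 in the Ctnnb1 cKO, and over all microglia it was 0.50 and 0.78. The opposite directions were not tested, since each genotype has 1 library, and both comparisons in a library share the same WT library. The share of cycling cells differed from WT in the same directions, at 31.3%, 19.9% and 18.9% of ECs and 9.50%, 12.2% and 15.7% of microglia in WT, Tspan12 KO and Ctnnb1 cKO, and its part in the ratios was not tested. No group held enough libraries for a search for outlying samples.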

How the results depend on the processing

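Each ratio was recomputed under 10 alternatives. Of 540 values of single kinesins other than Kif11, 477 kept their direction and the others turned. Among ratios past 1.5-fold as reported, those that turned were Kif20b in Ctnnb1 cKO cycling microglia, at 0.34 with counts thinned to 2000 UMIs per cell, and Kif23 in the Ctnnb1 cKO progenitor cluster, at 0.018 with cells gated by markers. With counts thinned to 2000 UMIs, Kif2c was −2.67 and Kif4 0.35 in Tspan12 KO cycling ECs, and Kif15 was 1.28 and Kif22 −0.77 in Ctnnb1 cKO cycling microglia, each turned from the direction reported. In what follows, values are log2 ratios to WT and the sum is that of the 10 kinesins. Per UMI of the rule genes, Kif11 and the sum were 0.14 and 0.032 in Tspan12 KO cycling ECs, −0.27 and −0.23 in Ctnnb1 cKO cycling ECs, and 0.16 and 0.26 in the Tspan12 KO progenitor cluster. As a mean over cells the sum was −0.39 and −0.23 in Tspan12 KO and Ctnnb1 cKO cycling ECs, 0.074 in Ctnnb1 cKO cycling microglia and −0.095 in the Tspan12 KO progenitor cluster. In Ctnnb1 cKO cycling ECs the sum was 0.21 with TMM scaling and −0.034 with a cycling call at 2 rule-gene UMIs. With the call made at 1000 UMIs, Kif11 and the sum were 0.11 and −0.079 in Tspan12 KO cycling ECs, and the sum 0.17 in those of the Ctnnb1 cKO. With the call made at 4000 UMIs the sum was −0.038 in Ctnnb1 cKO cycling ECs, and 0.19 and 0.11 in cycling microglia of the Tspan12 KO and Ctnnb1 cKO. With counts thinned to 2000 UMIs, Kif11 was 0.33 in Tspan12 KO cycling ECs, 1.12 and 0.40 in cycling microglia of the Tspan12 KO and Ctnnb1 cKO, and −0.15 in the Tspan12 KO progenitor cluster. The sum was then −0.28 in Ctnnb1 cKO cycling ECs, 0.27 in Ctnnb1 cKO cycling microglia and 0.017 in the Tspan12 KO progenitor cluster. With no doublets removed the sum was −0.38 in Ctnnb1 cKO cycling microglia. The cells were then clustered anew, and clusters c2 (2523 cells), c10 (1212) and c16 (653) were named retinal progenitors, in place of c15 (610) alone. Their cycling cells held 6112292 UMIs in WT and 5930897 in the Tspan12 KO, in place of 3027182 and 1341385. In these cells Kif11 and the sum were −0.99 and −0.86 in the Tspan12 KO and the sum −0.18 in the Ctnnb1 cKO. These values thus cover other cells than the progenitor cluster. With cells gated by markers, Kif11 and the sum were −1.19 and −1.05 in Tspan12 KO and −0.027 and −0.055 in Ctnnb1 cKO progenitors. The cause was not tested for any of these.

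The share of cells with a kinesin UMI was, without thinning, 65.4%, 56.6% and 28.4% of ECs, 27.3%, 28.5% and 24.6% of microglia, and 99.1% and 97.4% of the WT and Tspan12 KO progenitor cluster. At 1000 UMIs it was 21.1%, 14.2% and 12.5% of ECs, 6.86%, 10.5% and 12.96% of microglia, and 75.2%, 74.5% and 75.5% of the progenitor cluster, in the order WT, Tspan12 KO, Ctnnb1 cKO. The number of genes past 1.5-fold, 1946 and 3891 in ECs, 531 and 2265 in microglia and 1203 and 3366 in the progenitor cluster, was 2991 in Tspan12 KO ECs, 1589 and 3920 in microglia and 2127 in the Tspan12 KO progenitor cluster when genes with 20 UMIs were compared. With 1 UMI it was 9513 and 11935, 7714 and 10907, and 8326 and 12344, where more genes with few counts enter.

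No paired analysis was possible because each genotype has 1 library, and no replicate was left out for the same reason. Depth limited cycling microglia of WT, with 23 cells, and the Ctnnb1 cKO progenitor cluster, with 335 kinesin UMIs.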

Other observations

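The kinesins were also counted in other classes, beside 67.0 CPM of the 10 summed in WT rods, 75.6 in Tspan12 KO rods and 97.3 in those of the Ctnnb1 cKO. In amacrine cells the 10 kinesins summed were at 37.8 CPM in WT, 137 in the Tspan12 KO and 81.0 in the Ctnnb1 cKO, and 2 of 609, 33 of 708 and 9 of 143 cells of callable depth were cycling by the rule genes. Kif11 in amacrine cells was at 4.96, 24.2 and 10.3 CPM. Mural cells, which include pericytes, held 222 CPM of the 10 kinesins in the Tspan12 KO and 55.8 in the Ctnnb1 cKO, with 10 of 59 and 5 of 67 cells cycling, and had too few cells in WT. Macrophages or monocytes of the Ctnnb1 cKO held 237 CPM, with 33 of 255 cells cycling, and neutrophils 212 CPM from 43 UMIs. Neurogenic precursors, which follow the progenitors, held 56.4 CPM in WT and 54.9 in the Tspan12 KO, with 12 of 911 and 8 of 471 cells cycling, below the level in rods. Among astrocytes 9 of 45 cells of the Tspan12 KO were cycling and 0 of 20 in WT, where a count of 0 allows a share of up to 16.8% by the exact interval.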
